A study of Oryza sativa with 36 samples.

Results

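The 427 annotated copies of the ATLANTYS retrotransposon were followed in roots and shoots of rice seedlings with and without a transgene for FTO, an animal enzyme that removes N6-methyladenosine (m6A) from RNA. The copies were taken as the rows of the deposited repeat count tables whose name begins with the letters ATLANTYS alone, and make up 427 of 283220 repeat copies and 0.857% of the annotated repeat length. Peaks of the same name in the deposited m6A peak lists on repeats were taken too, and there are 108 of them. The plants were Oryza sativa of the ecotype Nipponbare, grown in culture solution and harvested at 15 days. FTO plants carry the FTO transgene, FTOmut plants carry a variant of FTO whose demethylation activity is dead, and WT plants are wild type; both transgenic lines are described as homogeneous. FTO and FTOmut plants thus both carry a transgene and WT plants carry none. The promoter of the transgenes and the number of lines behind each genotype are not given in these sources. RNA-seq after removal of ribosomal RNA, with ERCC spike-in transcripts put in first, gave 12 libraries, 2 for each genotype and organ. m6A-seq of poly(A) RNA gave 12 lists of peaks on repeats, again 2 for each genotype and organ.

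ATLANTYS is a family of long terminal repeat retrotransposons of the Gypsy type, known from rice and from Arabidopsis. Such elements move by a copy-and-paste route: the element is transcribed from its terminal repeat, and the RNA serves both as the message for its proteins and as the template for reverse transcription into a new DNA copy. In plants most copies are kept silent by DNA and histone methylation, in part guided by small RNAs, and many are truncated or are left as a single terminal repeat. m6A is a mark on the adenosines of RNA that is laid down by methyltransferase complexes and read by YTH-domain proteins.

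Gene counts per RNA-seq library lay between 12970274 and 17875977. Loci listed for green tissue in published rice nomenclature (5 loci, the pairing of names and loci is not in the files) summed to 6677 to 6787 CPM (library-scaled counts) in FTO shoot, to 4376 and 5945 CPM in FTOmut shoot, to 7482 in WT shoot replicate 1 and to only 1075 in WT shoot replicate 2. In root the same sum was 103.3 to 116.6 CPM in FTO, 518.3 and 867.4 in FTOmut and 114.9 to 138.3 in WT. The sum was thus higher in FTOmut roots than in WT roots. LOC_Os12g17600, a locus of the list, was not higher in FTOmut root replicate 2, at 15.99 CPM against 16.36 and 21.07 in WT roots. The 3 loci listed for root summed to 193.9 to 197.7 CPM in FTO root, 394.8 and 755.8 in FTOmut root, 621.6 to 756.1 in WT root and 1.92 to 4.41 in all shoots. Replicate 2 of FTOmut stood apart in both organs: 46166 genes had at least 10 counts in its root library, against 23223 to 30053 in the other roots, and 36486 in its shoot library, against 18065 to 22359 in the other shoots. In the same 2 libraries 89.1% and 72.8% of all repeat copies had a count, against at most 51.6% elsewhere. The family sums, the counts of calls and the called copies described one by one are given with and without these libraries where they enter. In bulk tissue, fewer cells of a type and less RNA per cell cannot be told apart.

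All 427 copies carry 1 shared name and no position in the count tables, so they are numbered here from ATLANTYS-1 to ATLANTYS-427 in table order. Their lengths ran from 34 to 13898 bp with a median of 1513 bp, and 128 of them were 1400 to 1600 bp long. Another 54 copies were 8000 bp or longer and held 604.6 kb, the largest share of the 4 length classes examined. Of the per-library values of the copies, 17.25% were not whole numbers, because reads that fitted several places had been shared out among them; near-identical copies can therefore lend each other counts, and the value of a single copy is uncertain to that extent. Each copy had a count in at least 1 library, and 54 had one in every library. No other feature identifies a copy, so single copies are described only by number, length and counts.

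In root, the family was read more in both transgenic genotypes than in WT. The summed counts were 4388 and 3714 in FTO roots, 4724 and 24658 in FTOmut roots, and 1369 and 1551 in WT roots. Scaled to the gene counts of the library (CPM, with TMM factors computed on the genes of the organ), FTO roots had 347.9 and 279.6, FTOmut roots 278.0 and 1163, and WT roots 92.2 and 89.5. Both FTO libraries and both FTOmut libraries lay above both WT libraries, while both FTO values lay between the 2 FTOmut values. The mean was 313.8 ± 48.3 CPM in FTO, 720.5 ± 625.8 in FTOmut and 90.9 ± 1.87 in WT (SD, n = 2 each). The 2 FTOmut libraries were 4.18-fold apart, a gap that no other root group showed, since the replicates differed by 1.24-fold in FTO and by 1.03-fold in WT.

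In shoot, the order of the genotypes was another one. The summed counts were only 192.8 and 205.0 in FTO shoots, against 546.4 and 13610 in FTOmut shoots and 1006 and 2818 in WT shoots. FTO shoots had 19.1 and 19.8 CPM, FTOmut shoots 23.0 and 598.1 CPM, and WT shoots 69.0 and 146.4 CPM. On this CPM scale both FTO values lay below every value of the other genotypes, and the WT values lay between the 2 FTOmut values. The FTOmut replicates were 26.1-fold apart and the WT replicates 2.12-fold apart. Means were 19.4 ± 0.495 CPM in FTO, 310.5 ± 406.7 in FTOmut and 107.7 ± 54.8 in WT (SD, n = 2 each), so the FTOmut mean is that of 1 library.

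**Figure D1:**
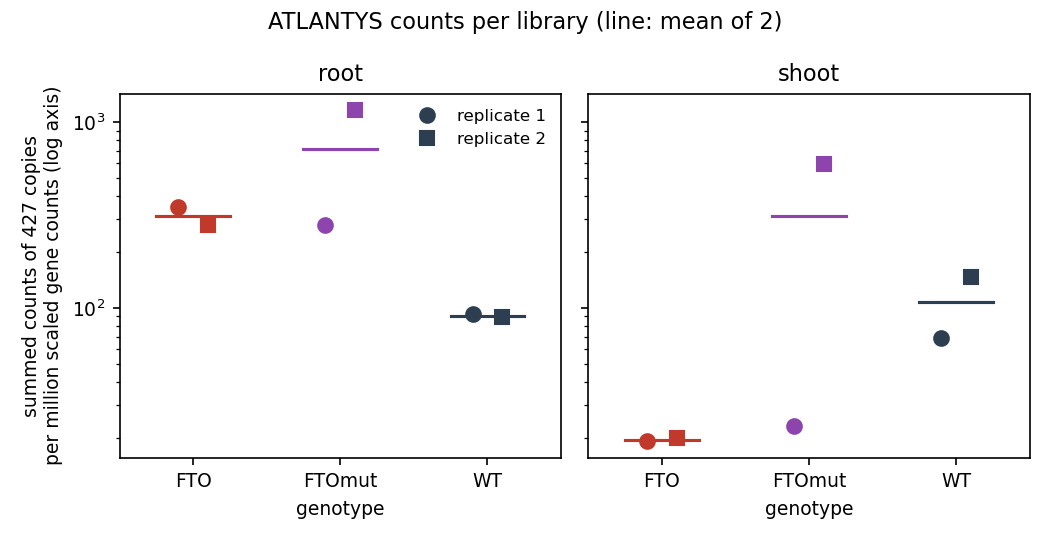
Summed ATLANTYS counts in CPM (log axis) in each RNA-seq library of root (left) and shoot (right), by genotype; circles are replicate 1, squares replicate 2, and lines the mean of both. In root the 2 WT libraries lie lowest at 92.2 and 89.5 CPM, in shoot the 2 FTO libraries lie lowest at 19.1 and 19.8 CPM, and the 2 FTOmut libraries are far apart in both organs.

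The counts were spread over many copies rather than coming from a few. A count was found in 378 and 359 copies in FTO roots, 385 and 424 in FTOmut roots, and 275 and 277 in WT roots. In shoot the numbers were 112 and 117 copies in FTO, 187 and 419 in FTOmut, and 240 and 330 in WT. Even so, single copies had few counts: the highest copy of a library reached 291.0 counts in FTOmut root replicate 2 and no more than 7 counts in either FTO shoot library. The 10 copies with most counts in a library held between 11.1% and 24.9% of the family's counts there.

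The count of a copy followed its length. Across the 427 copies, which share the library and its depth, Spearman's rho between count and length was 0.78 and 0.82 in FTO roots, 0.80 and 0.88 in FTOmut roots, and 0.76 and 0.74 in WT roots. It was 0.49 and 0.52 in FTO shoots, 0.67 and 0.84 in FTOmut shoots, and 0.72 and 0.79 in WT shoots. Per kb, the 54 copies of 8000 bp or more and the 96 copies of 2000 to 8000 bp were alike: in FTO root replicate 1 they had 3.51 and 3.44 counts per kb, and in WT root replicate 1 they had 1.09 and 1.04. The 182 copies of 1000 to 2000 bp, the class that holds the 128 copies of about 1.5 kb, had the lowest density in each of the 12 libraries, at 2.01 counts per kb in FTO root replicate 1 and 0.714 in WT root replicate 1.

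**Figure D2:**
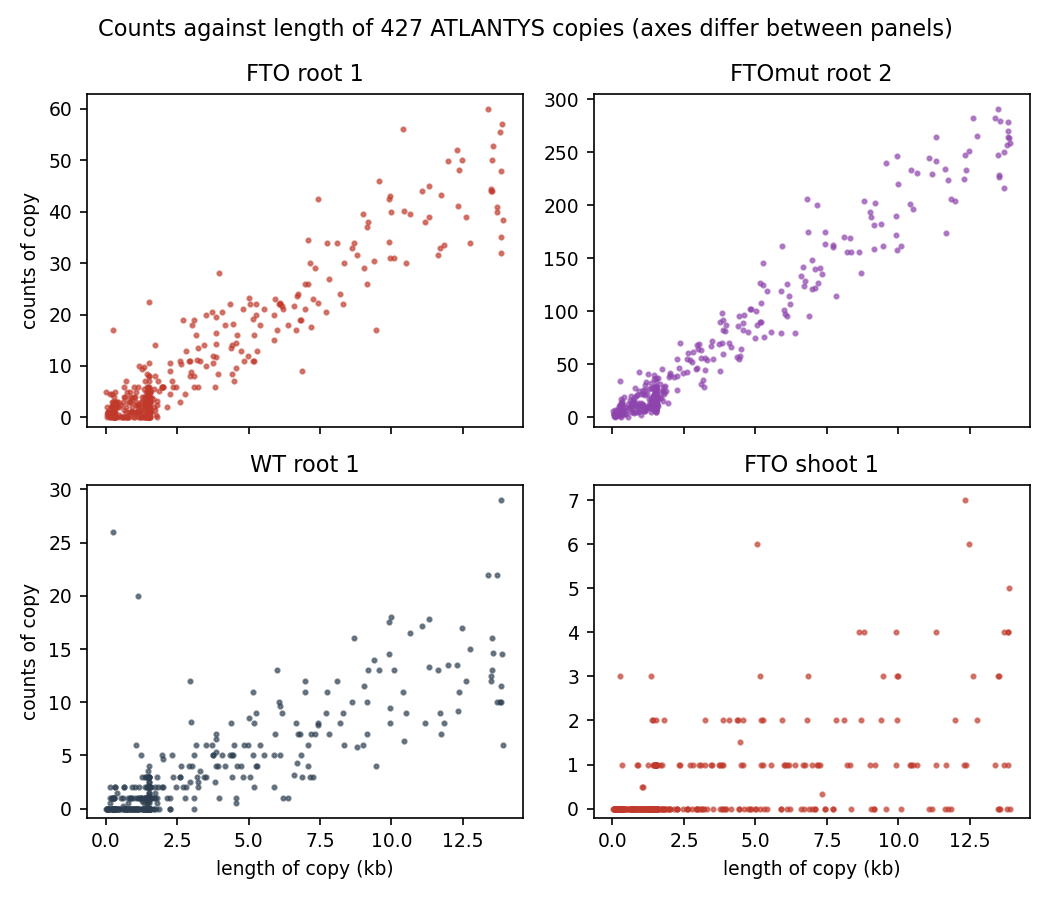
Counts of each of the 427 ATLANTYS copies against the length of the copy in kb, in 4 RNA-seq libraries; each point is 1 copy and the count axes differ between panels. Counts climb with length in the FTO, FTOmut and WT root libraries, while in the FTO shoot library no copy exceeds 7 counts.

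In root, the groups of other repeats examined stood in much the same order of libraries. ATLANTYS had 3.21 and 2.72 counts per kb in FTO roots, 3.46 and 18.1 in FTOmut roots, and 1.00 and 1.14 in WT roots, not scaled to depth. The 1376 copies of CACTA, a family of DNA transposons, had 3.11 and 3.06 counts per kb in FTO roots, 3.20 and 14.6 in FTOmut roots, and 1.33 and 1.63 in WT roots. The 81922 copies with LTR_Os names were denser, at 4.96 and 4.73 in FTO roots, 5.99 and 15.1 in FTOmut roots, and 3.40 and 4.06 in WT roots. All 3 groups thus peaked in FTOmut root replicate 2. The median density of the 27052 other repeat copies of at least 1 kb was 2.28 and 1.86 counts per kb in FTO roots, 2.55 and 11.7 in FTOmut roots, and 0.707 and 0.874 in WT roots.

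In shoot, ATLANTYS was the sparsest of the 3 groups in both FTO libraries and in replicate 1 of FTOmut and of WT; in root it was so in FTO replicate 2 and both WT libraries. In shoot it had 0.141 and 0.150 counts per kb in FTO shoots, 0.400 and 9.96 in FTOmut shoots, and 0.737 and 2.06 in WT shoots. CACTA had 0.387 in both FTO shoots, 1.04 and 7.5 in FTOmut shoots, and 0.823 and 1.96 in WT shoots. Copies with LTR_Os names had 0.909 and 0.987 in FTO shoots, 2.11 and 7.65 in FTOmut shoots, and 1.63 and 2.40 in WT shoots. The median other repeat copy of at least 1 kb had 0 counts per kb in both FTO shoots, 0.239 and 5.92 in FTOmut shoots, and 0.385 and 1.22 in WT shoots. Summed over all repeat copies, the shoots stood in another order. FTO shoots had 11.3 and 12.7 counts per kb, FTOmut shoots 16.3 and 25.8, and WT shoots 25.5 and 27.9. The part that this library-wide level of repeat counts plays in the ATLANTYS values was not tested.

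**Figure D3:**
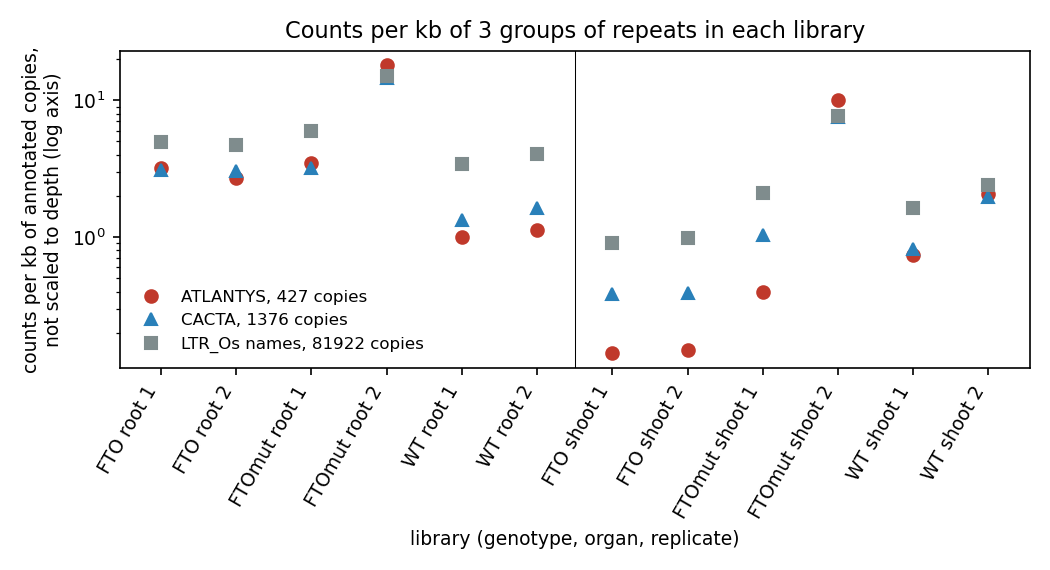
Counts per kb of annotated sequence, not scaled to depth (log axis), in each RNA-seq library for ATLANTYS (427 copies, circles), CACTA (1376 copies, triangles) and copies with LTR_Os names (81922 copies, squares). The 3 groups peak together in replicate 2 of FTOmut, and ATLANTYS is the lowest of the 3 in both FTO shoot libraries, at 0.141 and 0.150.

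The 10 copies with the highest mean level over all 12 libraries were ATLANTYS-335, ATLANTYS-369, ATLANTYS-239, ATLANTYS-318, ATLANTYS-228, ATLANTYS-286, ATLANTYS-272, ATLANTYS-244, ATLANTYS-325 and ATLANTYS-211, all between 12285 and 13857 bp long and between 2.43 and 2.68 CPM. Replicate 2 of FTOmut, with the highest family levels, weighs most in this rank, and the copy with most counts in WT root replicate 2 and in FTOmut shoot replicate 1, ATLANTYS-91, is not among them. ATLANTYS-335, of 13857 bp, had 57.0 and 43.3 counts in FTO roots, 69.0 and 263.8 in FTOmut roots, and 14.5 and 15.5 in WT roots. In shoot ATLANTYS-335 had 5.0 and 6.0 counts in FTO, 6.25 and 150.3 in FTOmut, and 10 and 33.0 in WT. In root WT was lowest for ATLANTYS-335, as for the family sum. Unlike the sum, its FTO root replicate 2, at 3.26 CPM, lay below both FTOmut roots, at 4.06 and 12.45. In shoot its 0.495 and 0.579 CPM in FTO lay above the 0.263 CPM of FTOmut replicate 1. ATLANTYS-369, of 13538 bp, had 52.8 and 27.0 counts in FTO roots, 53.0 and 279.2 in FTOmut roots, and 14.7 and 16 in WT roots. In shoot ATLANTYS-369 had no count in either FTO library, against 5.0 and 167.2 in FTOmut and 20.0 and 41.0 in WT. Per length, in FTO root replicate 1, ATLANTYS-335 had 4.11 counts per kb and ATLANTYS-369 had 3.90, beside a family density of 3.21. In FTO shoots ATLANTYS-335 had 0.361 and 0.433 counts per kb, beside 0.141 and 0.150 for the family, while ATLANTYS-369 had none.

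FTO was set against WT in root to ask whether copies differ between rice with and without the transgene. ATLANTYS read higher: the family sum was 3.45-fold higher in FTO (log2 1.79), with no overlap of libraries, and over all 427 copies without a filter 385 had a higher mean CPM in FTO and 33 a lower one. That is 92.1% of the copies with a count in these libraries, beside 78.4% of all repeat copies. With edgeR's quasi-likelihood test at a Benjamini-Hochberg adjusted p under 0.05, 10 copies passed as higher in FTO and 0 as lower. An unadjusted edgeR p under 0.05 was found for 94 of the 160 tested, beside 7890 of all 22760 repeat copies tested. DESeq2 called 24, beside 9.98% of all copies tested, and gave 37 of the 160 no adjusted p. Of all 22760 repeat copies tested, 9.81% were called and 7.19% were called higher. Of the tested members 6.25% were called by edgeR, so in this fit their share was near the background. It was 8.12% beside 9.82% of all with relative log expression factors. In other settings it lay above: 15.0% beside 9.98% with DESeq2 and 22.5% beside 11.5% with the replicate number as a block. ERCC scaling gave 55.6% beside 30.1%, and a fit of the 4 FTO and WT libraries alone gave 80.6% beside 48.5%. Fits without single libraries are given below. Only 160 of the 427 copies passed the filter on low counts, of which 116 had at least 10 counts in both FTO libraries, 137 in both FTOmut libraries and 35 in both WT libraries. Their median log2 fold change was 1.80, beside 1.27 for all copies tested. The loci listed for root summed to 193.9 and 197.7 CPM in FTO roots, against 756.1 and 621.6 CPM in WT roots; the part of this difference in the ATLANTYS values was not tested.

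The 6 called copies with the largest change were ATLANTYS-204, ATLANTYS-293, ATLANTYS-409, ATLANTYS-206, ATLANTYS-239 and ATLANTYS-42. ATLANTYS-204, of 3975 bp, had 28.0 and 15.0 counts in FTO roots, against 1.0 and 4.0 in WT roots. It was 10.5-fold higher in FTO (log2 3.39, SE 0.98, edgeR adjusted p = 0.0412). ATLANTYS-293, of 6371 bp, had 18.0 and 19.0 counts in FTO roots, against 1.0 and 4.0 in WT roots, and was 8.94-fold higher (log2 3.16, SE 0.92, edgeR adjusted p = 0.0431). ATLANTYS-409, of 9005 bp, had 39.5 and 38.0 counts in FTO roots, against 6.0 and 10 in WT roots, and was 6.03-fold higher (log2 2.59, SE 0.71, edgeR adjusted p = 0.0326). That the libraries of the genotypes do not overlap in the named copies was a condition for naming them. The other 3, of 9192 to 12342 bp, were 4.79-fold to 5.07-fold higher.

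The number of copies called between FTO and WT roots turned on single libraries of the fit, which takes in FTOmut. Without FTOmut root replicate 1 it was 138, and without FTOmut root replicate 2 it was 131, while a fit of the 4 FTO and WT libraries alone called 129, of which 128 were higher in FTO. Calls over all repeat copies tested were more frequent in these fits too, at 53.9%, 51.3% and 48.5%. Leaving out an FTO or a WT root library instead took nearly all of these calls away. In those fits the members were called less often than all repeat copies tested. The median log2 fold change of the tested copies stayed between 1.66 and 1.94 when any 1 root library was left out.

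FTOmut against WT in root compares the inactive protein with no transgene. Of the 160 tested copies, 148 were called higher in FTOmut and 0 lower (DESeq2: 142, beside 52.2% of all copies tested), where 59.1% of all repeat copies tested were called and 51.7% were called higher. The family sum was 7.93-fold higher (log2 2.99) with no overlap, and of all 427 copies 422 had a higher mean in FTOmut and 4 a lower one, 99.1% of those with a count beside 90.6% of all repeat copies. The tested copies had a median log2 fold change of 3.01, beside 2.11 for all copies tested. At least 10 counts were reached in an FTOmut library by 159 of the 160, and in a WT library by 73. Many copies thus passed the filter through genotypes in which they are high, which favours calls and a median in that direction. Without FTOmut root replicate 2 the sum was higher by 1.61 on the log2 scale and 107 copies were called, 106 of them higher, beside 43.8% of all copies tested. Leaving out WT root replicate 1 or 2 left 27 and 20 calls, beside 7.12% and 6.35% of all.

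Among called copies, ATLANTYS-137, ATLANTYS-289, ATLANTYS-190, ATLANTYS-125, ATLANTYS-189 and ATLANTYS-204 had the largest change. ATLANTYS-137, of 2265 bp, had 6.5 and 39.5 counts in FTOmut roots, against 0.0 and 1.0 in WT roots (log2 4.89, SE 1.33, edgeR adjusted p = 0.0117). With so few counts in WT this fold is poorly fixed: without FTOmut root replicate 2, ATLANTYS-137 was at log2 3.24 and was not called (edgeR adjusted p = 0.119). ATLANTYS-189, of 5183 bp, had 17.0 and 90.0 counts in FTOmut roots, against 2.0 and 3.0 in WT roots (log2 4.02, SE 0.95, edgeR adjusted p = 0.00738). ATLANTYS-204 had 18.0 and 87.0 counts in FTOmut roots, against 1.0 and 4.0 in WT roots (log2 4.02, SE 0.97, edgeR adjusted p = 0.00819), and was the only copy named in both comparisons. Both comparisons share the WT libraries. Without FTOmut root replicate 2, the log2 value of ATLANTYS-189 was 2.65 and that of ATLANTYS-204 was 2.74, and both were called; without either WT root library neither was called. The sum of green-tissue loci was also higher in FTOmut roots, as given above, and its part in these values was not tested.

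FTO against FTOmut in root sets the active enzyme against the inactive one. The sum was 0.435-fold that of FTOmut (log2 -1.20) and the libraries overlapped. Of the 160 tested copies 0 were called by edgeR, where 2.34% of all repeat copies tested were called. An unadjusted edgeR p under 0.05 was found for 24 of the 160, beside 2729 of all 22760. DESeq2 called 0 too, but gave 104 of the 160 no adjusted p. The smallest p belonged to ATLANTYS-211, of 13827 bp, which had 32.0 and 34.0 counts in FTO roots and 53.0 and 270.5 in FTOmut roots (log2 -1.64, SE 0.58, edgeR adjusted p = 0.242). The next by p, ATLANTYS-44, ATLANTYS-244, ATLANTYS-325 and ATLANTYS-411, all over 13 kb, had log2 values of -1.48 to -1.34. This comparison depended on FTOmut root replicate 2: without it the log2 ratio of the sums was 0.17 and 1 copy was called, and without FTOmut root replicate 1 it was -1.89 and 143 copies were called, lower in FTO, beside 6.69% and 50.9% of all copies tested.

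**Figure D4:**
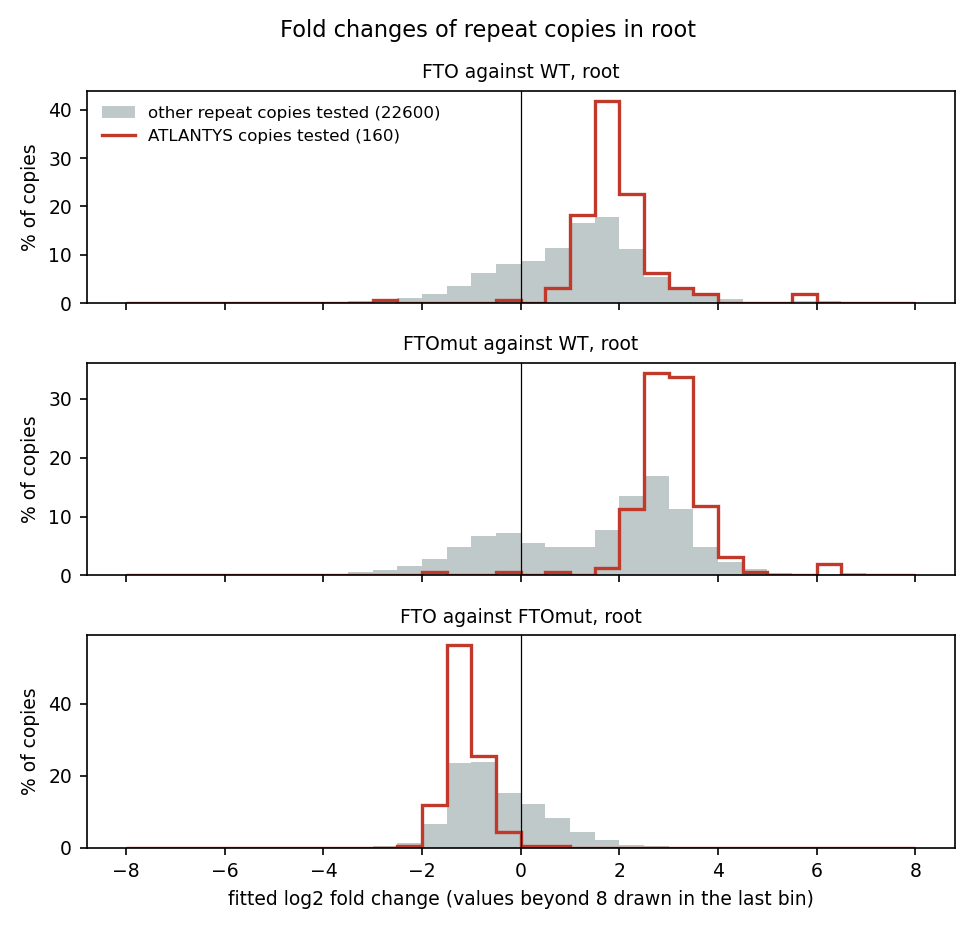
Fitted log2 fold changes in root, in bins of 0.5, as the percent of the 160 tested ATLANTYS copies (line) and of the 22600 other tested repeat copies (grey), for FTO against WT, FTOmut against WT and FTO against FTOmut. The ATLANTYS copies lie in a narrower band than other repeats, with medians of 1.80, 3.01 and -1.16 beside 1.27, 2.11 and -0.66 for all copies tested.

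A pair of tested copies went the other way in root; both were singled out after their values were seen. ATLANTYS-51, of 1128 bp, had 0.0 and 4.0 counts in FTO roots, 4.0 and 8.0 in FTOmut roots, and 20.0 and 15.0 in WT roots. Its log2 fold change was -2.79 (SE 1.08, edgeR adjusted p = 0.102) in FTO and -1.81 (SE 0.95, edgeR adjusted p = 0.110) in FTOmut, so it was not called, although neither genotype overlapped with WT. ATLANTYS-91, of only 252 bp, had 17.0 and 19.0 counts in FTO roots, 20.0 and 34.0 in FTOmut roots, and 26.0 and 30.0 in WT roots, with log2 values of -0.32 in both comparisons. At 67.5 to 134.9 counts per kb in root it was far denser than the family, which had at most 18.1.

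In shoot, FTO was set against WT with few counts to go on. The family sum was 5.54-fold lower in FTO (log2 -2.47), without overlap, and over all 427 copies 24 had a higher mean in FTO and 342 a lower one, 93.4% of those with a count beside 82.5% of all repeat copies. Of the 89 copies that passed the filter 0 were called by edgeR, where 0% of the 10051 repeat copies tested were called. An unadjusted edgeR p under 0.05 was found for 2 of the 89, beside 283 of all 10051. DESeq2 gave none of the 89 an adjusted p, so it could call none. None of the 89 had at least 10 counts in either FTO library, while each had that many in a WT and in an FTOmut library: they passed the filter through the genotypes in which they are high. ATLANTYS-21, of 6991 bp, had the smallest p, with no count in either FTO shoot library against 6.0 and 19.0 in WT shoots (edgeR adjusted p = 0.788). The same held for ATLANTYS-312 and ATLANTYS-231, with no count in FTO shoots against 10 and 21.5, and 7.0 and 21.0, in WT shoots. The WT shoot libraries, which differ in the sum of green-tissue loci, gave log2 ratios of -2.91 and -1.83 when replicate 1 or 2 of WT was left out. Scaled to ERCC counts the log2 ratio was -1.67; that scaling moves the mean log2 level of every copy by 0.93 in this comparison.

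FTOmut against WT in shoot cannot be read apart from 1 library. The sums overlapped, at a ratio of 2.88 (log2 1.53), and without FTOmut shoot replicate 2 the log2 ratio was -2.23. Of 89 tested copies 0 were called by edgeR, where 0% of all tested were called. An unadjusted edgeR p under 0.05 was found for 0 of them, beside 493 of all 10051 tested. DESeq2 gave none of the 89 an adjusted p. ATLANTYS-318, of 12285 bp, had 11.0 and 196.5 counts in FTOmut shoots, against 12.0 and 28.0 in WT shoots (log2 1.98, SE 1.22, edgeR adjusted p = 0.848).

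FTO against FTOmut in shoot gave lower sums in FTO without overlap (log2 -4.00), but the margin to FTOmut shoot replicate 1 was small, at 19.1 and 19.8 CPM against 23.0. Without FTOmut shoot replicate 2 the log2 ratio was -0.24. The lack of overlap held in CPM only. With ERCC scaling both FTO sums lay above that of FTOmut shoot replicate 1 and below that of replicate 2. Again 0 of 89 copies were called by edgeR, where 0% of all tested were called. An unadjusted edgeR p under 0.05 was found for 29 of the 89, beside 1583 of all 10051 tested. DESeq2 called 13, beside 3.86% of all. Without FTOmut shoot replicate 1, edgeR called 86, beside 31.8% of all. ATLANTYS-318 had 1.0 count in each FTO shoot library, against 11.0 and 196.5 in FTOmut shoots (edgeR adjusted p = 0.285).

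Root was set against shoot within each genotype, with 1 scaling over all 12 libraries. FTO roots had 196.9 and 160.5 CPM, against 32.4 and 33.1 in FTO shoots, a 5.46-fold higher sum in root (log2 2.45) without overlap. FTOmut roots had 180.7 and 760.7 CPM, against 38.1 and 883.5 in FTOmut shoots, with overlap. WT roots had 59.0 and 57.6 CPM, against 104.8 and 233.9 in WT shoots, so the WT sum was lower in root (log2 -1.54) without overlap. The organ in which the family read higher therefore differed between FTO and WT. These levels depend on the scaling. ERCC scaling moves the root minus shoot difference in mean log2 level of every copy by -1.66 in FTO, -1.76 in FTOmut and -1.52 in WT. Replicates moved unequally, so ratios of sums need not move by these amounts. With ERCC scaling the log2 ratios of the sums were 0.79 in FTO, -2.02 in FTOmut and -3.18 in WT.

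Copy by copy, 204 of the 427 were tested over the 12 libraries and 0 were called between organs by edgeR in any genotype. In FTO, 36 had an unadjusted edgeR p under 0.05, beside 5667 of all 29872 copies tested. There edgeR called 4.44% of all. DESeq2 called 11 members, or 5.39%, beside 7.44% of all. In FTOmut, 0 had an unadjusted edgeR p under 0.05, beside 2508 of all, and edgeR called 2.16% of all. DESeq2 called 0, with no adjusted p for 78 of the 204. In WT, 8 had an unadjusted edgeR p under 0.05, beside 3676 of all, and edgeR called 3.44% of all. DESeq2 called 0, with no adjusted p for 41. No copy reached 10 counts in an FTO shoot library, so the tested copies were those with counts in other groups. Over all 427 copies without a filter, 388 had a higher mean in FTO roots than in FTO shoots, 94.2% of those with a count beside 86.4% of all repeat copies, and 336 had a lower mean in WT roots than in WT shoots, 85.7% beside 64.1%. Leaving out FTOmut shoot replicate 1 or 2 gave 63 and 60 calls in FTO, beside 20.0% and 20.1% of all copies, and 17 each time in WT, or 8.33%, beside 10.1% and 10.6% of all. Leaving out FTOmut shoot replicate 2 gave 115 in FTOmut, beside 21.8% of all. The edgeR contrast of the FTO effect in root minus that in shoot called 0 of the 204 copies, where 0.281% of all copies tested were called. An unadjusted edgeR p under 0.05 was found for 62 of the 204, beside 5053 of all 29872. DESeq2 called 21, beside 2.63% of all. Without FTOmut shoot replicate 1 or 2 edgeR called 112 and 111, beside 20.9% and 20.4% of all. ATLANTYS-290, of 5882 bp, had 20.0 and 26.5 counts in FTO roots against none in either FTO shoot library (edgeR adjusted p = 0.102). ATLANTYS-293 went the other way in WT, with 1.0 and 4.0 counts in WT roots against 11.0 and 16 in WT shoots (log2 -3.58, SE 1.32, edgeR adjusted p = 0.224).

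The m6A peak lists showed ATLANTYS mainly in shoot. Of 108 peaks, 101 were in shoot lists and 7 in root lists. FTO shoot had 24 and 5 peaks, FTOmut shoot 51 and 15, and WT shoot 4 and 2. FTO root had 1 and 1, FTOmut root 0 and 2, and WT root 1 and 2. Each FTO and FTOmut shoot list had more than either WT shoot list, though FTO shoot replicate 2 did so by only 1 peak, and the replicates of FTO and of FTOmut were far apart. With 2 lists against 2, an exact permutation test cannot go below p = 0.333, so no test was made.

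Shares of the list tell the same, since the lists differ in length. In shoot, ATLANTYS made up 0.370% (95% Wilson interval 0.249% to 0.550%) and 0.0849% (0.0363% to 0.199%) of repeat peaks in FTO, 0.583% (0.443% to 0.765%) and 0.233% (0.141% to 0.384%) in FTOmut, and 0.0809% (0.0315% to 0.208%) and 0.0345% (0.00947% to 0.126%) in WT. The intervals cover counting error only, and treat peaks of 1 element as separate. The intervals of replicate 2 of FTO and replicate 1 of WT overlap. In the roots the shares were at most 0.0485%. The m6A-seq replicate with most ATLANTYS peaks in FTOmut shoot was number 1, while the RNA-seq library with most ATLANTYS counts was number 2; they are separate libraries.

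The peaks were narrow, 110 to 349 bp wide with a median of 140 bp, and 91 lay on the minus strand and 17 on the plus strand. The fold of immunoprecipitate over input, the authors' own value for each peak, ran from 4.0 to 56.3 with a median of 10, and 59 peaks had a fold of 10 or more. Medians in the shoot lists were 10 and 13.0 in FTO, 9.0 and 11.0 in FTOmut, and 22.5 and 8.5 in WT. All repeat peaks in those lists had medians of 15.0 and 17.0 in FTO, 14.0 and 19.6 in FTOmut, and 17.0 and 14.5 in WT. ATLANTYS peaks were thus of lower fold than the list median in 5 of the 6 shoot lists, WT replicate 1 being the exception with 4 peaks.

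Joined over gaps of up to 5 kb on 1 strand, the peaks formed 18 loci on 9 chromosomes, named here L1 to L18, and the 3 with most peaks held 57 of the 108. Positions are as the lists give them, in a build not given in the sources used here, and cannot be tied to rows of the count tables. L14, at chr9:13438804-13450548 on the minus strand, spanned 11745 bp and held 31 peaks, 8 in FTO shoot replicate 1 and 16 and 7 in the FTOmut shoot lists, with none in WT shoot or any root list. L2, at chr2:5983207-5992015 on the minus strand, held 15 peaks, 4 in FTO shoot replicate 1 and 9 and 2 in the FTOmut shoot lists. L13, at chr8:11802100-11812799 on the minus strand, held 11 peaks, 2 in FTO shoot replicate 1 and 8 and 1 in the FTOmut shoot lists. At these 3 loci peaks followed each other along 8809 to 11745 bp. No WT list had one there, and neither did FTO shoot replicate 2.

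Other loci had peaks of several genotypes at 1 place. L17, at chr12:4369880-4370358 on the plus strand, had 1 peak in each of 7 lists, among them both FTO root lists, FTOmut root replicate 2 and WT root replicate 1, with folds from 5.0 to 26.0. It was the only locus in more than 1 root list. L1, at chr1:12282950-12283398 on the minus strand, had 9 peaks in 6 lists: both FTO shoot, both FTOmut shoot, WT shoot replicate 1 and WT root replicate 2. L12, at chr8:7362038-7362427 on the minus strand, had a peak in both FTOmut shoot and both WT shoot lists and in no FTO list. L4, at chr3:20574136-20574262 on the minus strand, held the 2 peaks of highest fold, 33.0 in FTO shoot replicate 1 and 56.3 in WT shoot replicate 1.

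Same-strand peaks of both replicates with an overlap of 1 bp or more gave 2 regions in FTO shoot, 6 in FTOmut shoot, 1 in WT shoot and none in any root group. Over all repeat peaks, 63.1% of the replicate 1 peaks were overlapped in FTO shoot, 51.2% in FTOmut shoot and 71.7% in WT shoot. For ATLANTYS the numbers were 3 of 24 in FTO shoot, 7 of 51 in FTOmut shoot and 1 of 4 in WT shoot. Mean folds of these regions were taken over overlapping pairs of peaks, so a peak in several pairs counts in each. The regions of FTO shoot were chr1:12282960-12283398 in L1, with mean fold 15.6, and chr12:4369880-4370228 in L17, with mean fold 14.5. FTOmut shoot shared the L1 place, at chr1:12282960-12283129, and had others at chr2:5983927-5984197, chr8:7362038-7362277, chr9:13446460-13446670, chr9:13448449-13448729 and chr11:6164748-6165018, with mean folds of 10.5 to 14.5. The region of WT shoot, chr8:7362148-7362267, lay within the L12 region of FTOmut shoot and had a mean fold of 15.0.

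**Figure D5:**
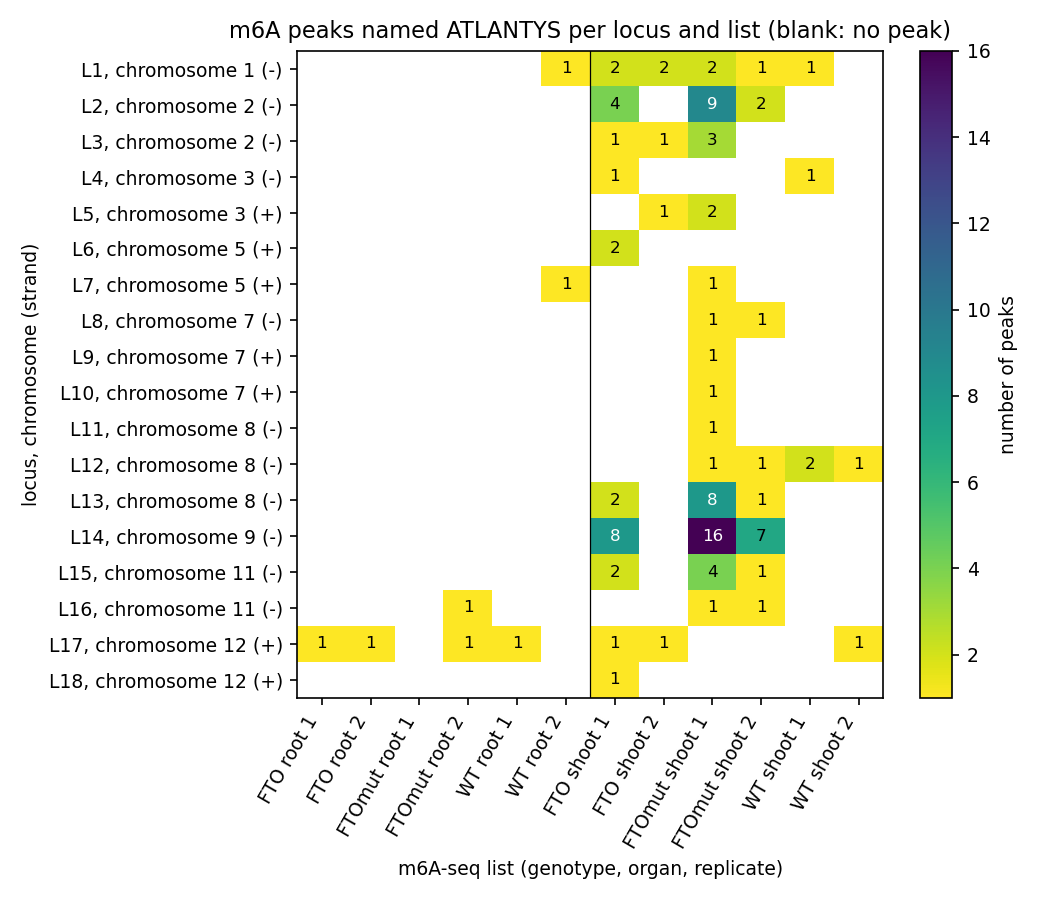
Number of m6A peaks named ATLANTYS at each of 18 loci (rows, with chromosome and strand) in each of the 12 m6A-seq lists (columns); blank cells have no peak. L14, L2 and L13 have peaks in FTO shoot replicate 1 and both FTOmut shoot lists, and none in WT or in FTO shoot replicate 2. L17 has 1 peak in each of 7 lists of both organs.

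Of the 108 peaks, 3 also lay under a peak of the gene list of the same replicate, all at L14 and all at LOC_Os09g22230, a locus of 4998 bp that the files do not describe. Reads at a place annotated as both gene and repeat can enter both tables. LOC_Os09g22230 had 18.0 and 17.0 counts in FTO roots, 33.0 and 143.0 in FTOmut roots, and 10 and 13.0 in WT roots. In shoot LOC_Os09g22230 had no count in either FTO library, against 10 and 126.0 in FTOmut and 8.0 and 19.0 in WT. As for the family sum, WT was lowest in root and FTO in shoot, and replicate 2 of FTOmut was highest in both organs. FTO shoot replicate 1 of m6A-seq had 8 peaks at L14, while neither FTO shoot library of RNA-seq had a count at this gene locus; the m6A-seq libraries came from poly(A) RNA and the RNA-seq libraries from RNA freed of ribosomal RNA.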

How the data were processed

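The members and lists were chosen with earlier results of these data known. Per the submitters' processing notes, reads were processed with cutadapt 1.15, HISAT2 2.1.0 and featureCounts (Subread 1.6.4). Both deposited count tables per organ hold expected counts, with fractions for shared reads and no normalization; the deposited length column (bp), of an other unit, served for counts per kb. Library kits were directional per the labels; whether counting used strand is not given in the sources used here. The labels name polyA RNA for RNA-seq as well, against their own protocol. The labels' descriptions name MeTPeak for the deposited peak lists, made per replicate. Among the deposited peak values, fold is the ratio of immunoprecipitate to input, log10 values are given for p and FDR, and score holds the p-value; only positions, names and folds were used.

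Counts were rounded to whole numbers, and all repeat copies that passed edgeR's filterByExpr were fitted per organ (6 libraries), or over 12 libraries for root against shoot, with edgeR 4.0.16 in R 4.3.3 (robust quasi-likelihood test, two-sided). Library sizes and TMM factors came from filtered genes, so changes are relative to genes. p-values were adjusted (Benjamini-Hochberg) over all copies tested, called under 0.05 with no minimum fold. DESeq2 1.42.0 was an alternative, with scaling, filters, a replicate block and left-out libraries. The code was tested on simulated data. Family sums got no test. Named copies were up to 6 each way per comparison with the largest change among called copies with at least 1 CPM in the higher group and no overlap, otherwise 5 by smallest p; the 10 with the highest mean CPM; and up to 10 replicated peaks. The labels do not say that replicates came from separate plants or cultures, so p-values measure only the spread between these samples. Peak starts are 1-based. Sequences of the copies were not used here.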

Additional observations from a re-analysis of the deposited data

Results flagged for a closer look

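The effect of FTO on the summed ATLANTYS counts had opposite directions in the 2 organs: the log2 ratio of FTO over WT was 1.79 in root and -2.47 in shoot, a gap of 4.26, with both FTO libraries above both WT libraries in root and below them in shoot. The difference was not tested on the sums. Copy by copy, edgeR's contrast of the FTO effect in root minus that in shoot was added after the directions were seen. It called 0 of 204 tested copies, beside 0.281% of all 29872 copies tested. An unadjusted edgeR p under 0.05 was found for 62 of the 204, beside 5053 of all. DESeq2 called 21, beside 2.63% of all. The median difference of the tested copies was 4.43, beside 2.76 for all copies. It depended on the FTOmut libraries in the shared fit: 112 and 111 copies were called without FTOmut shoot replicate 1 or 2, beside 20.9% and 20.4% of all copies tested. The median copy of other long repeats moved in the same directions, as given above.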

How the results depend on the processing

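Copies called between FTO and WT roots numbered 89 with ERCC scaling, 1 without the low-count filter and 24 with DESeq2, against 10. The replicate block gave 36 and a fit of the 4 libraries compared gave 129. Of all copies tested, ERCC scaling called 30.1%, DESeq2 9.98%, the replicate block 11.5% and the fit of 4 libraries 48.5%, against 9.81%. For FTO against WT in root, the fit without the filter called 1153 repeat copies of any name. Shares over all repeat copies were not worked out without the filter, so its calls have no background beside them. Without the filter 1 copy was called for FTO against WT in shoot and 2 for FTO against FTOmut in shoot, each against 0. For root against shoot in FTO 1 was called, also against 0. DESeq2 called 13 and 11 in the last 2 comparisons, beside 3.86% and 7.44% of all copies tested. The replicate block called 2 in the last, beside 5.32% of all. With ERCC scaling, the log2 ratio of the sums was 2.29 for FTO against WT in root, -1.67 for FTO against WT in shoot, and 0.79, -2.02 (turned round) and -3.18 for root against shoot in FTO, FTOmut and WT. Relative log expression factors changed no such result. The labels do not say what samples with the same replicate number have in common. Between genotypes of 1 organ, their deviations correlated at -0.29 to 0.13 in root and 0.02 to 0.25 in shoot. Root and shoot samples of the same number were not compared in this way.

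With single libraries left out, and the lone sample of a group assumed to vary like the others, calls ranged from 0 to 138 for FTO against WT in root, 20 to 158 for FTOmut against WT in root, 0 to 143 for FTO against FTOmut in root, 0 to 86 for FTO against FTOmut in shoot, and 0 to 63, 0 to 115 and 0 to 17 for root against shoot in FTO, FTOmut and WT; they were 0 for FTO or FTOmut against WT in shoot. The share of all repeat copies called rose and fell between these fits too. The log2 ratios of the sums ranged from 1.62 to 1.94, 1.61 to 3.68 and -1.89 to 0.17 (turned round without FTOmut replicate 2) for the 3 root comparisons. In shoot they ranged from -2.91 to -1.83, -2.23 (turned round without FTOmut replicate 2) to 2.47, and -4.94 to -0.24. For root against shoot they ranged from 2.29 to 2.59 in FTO, -1.35 to 3.63 in FTOmut (-0.91 without shoot replicate 1, also turned round) and -2.0 to -0.85 in WT. The causes were not tested. Of the 12 named results with a call, 5 lost it without the filter, 6 without either FTO root library, 11 without either WT root library and 1, ATLANTYS-137, without FTOmut root replicate 2; none turned round.

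A fold of at least 10, chosen after seeing the data because the planned fold of 2 lies under the lowest fold in the lists, left 8.5 peaks per list in FTO shoot, 15.5 in FTOmut shoot and 0.5 in FTOmut root, against 14.5, 33.0 and 1.0. By single lists the ranges were 5 to 24 in FTO shoot, 15 to 51 in FTOmut shoot and 0 to 2 in FTOmut root. Low counts limit single copies most in FTO shoot, where none reached 10 counts, although these libraries had the most gene counts of the 12.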
